A study of Homo sapiens with 12 samples.

Results

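Ancient repeats are the worn remains of mobile elements that stopped copying long before the primates arose. Among the peaks of 2 SOX transcription factors in human germ cell tumour lines, those in ancient repeats were taken from the repeat name in the deposited annotation: LINE elements of any family but L1, and SINE elements of the MIR family. They were 1205 of 17507 SOX17 peaks and 1017 of 17795 SOX2 peaks, or 2222 of 35302 peaks in all. SOX17 was precipitated from TCam-2, a seminoma-like line, and SOX2 from 2102EP, an embryonal carcinoma-like line. There were 3 biological replicates of each immunoprecipitation and 3 libraries of 2% input from each line, 12 libraries in 4 groups; the inputs have no values in the lists and were not used here. The labels name no treatment or genetic change of either line, and chromatin from both was fixed with a protein crosslinker and then with 1% formaldehyde. The authors deposited 1 merged list per factor without values per library or read totals. Depth is therefore unknown and no value carries a replicate error, so intervals and tests cover counting over peaks, and a difference between antibodies cannot be told apart from one between lines.

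L2 and CR1 are LINE elements, which encoded their own copying machinery, and MIR is a short SINE that was copied by the machinery of L2. Their many copies across mammals have since drifted apart in sequence, and some are known to serve as regulatory elements. SOX proteins bind a short site through their HMG box, and many of them bind beside an OCT factor such as POU5F1 (OCT4) on a composite site. SOX2 and OCT4 pair on the canonical composite, in which 1 base separates the SOX and OCT parts. SOX17 can pair with OCT4 on a compressed composite in which that base is missing.

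The sites searched were CATTGT or CTTTGT for SOX, ATGCAAAT or ATGCTAAT for OCT, and GCCNNNGGC for AP-2, on both strands. Composite sites of ancient repeat peaks are shown first, because their spacing differed between the factors, in 101 bases of hg38 around the peak centre read in the direction of the site. Capitals mark the composite, SOX part first, and each line gives the nearest gene, the repeat element, the list and the position. The KIT peak was added after its values were seen.
USP47, MIRb, SOX17 list, chr11:11817083-11817183, minus strand: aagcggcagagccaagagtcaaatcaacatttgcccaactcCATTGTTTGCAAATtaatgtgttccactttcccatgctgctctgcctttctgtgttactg
P3H2, MIR3, SOX17 list, chr3:190133220-190133320, minus strand: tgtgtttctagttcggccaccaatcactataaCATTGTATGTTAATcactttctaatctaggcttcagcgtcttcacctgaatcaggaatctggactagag
MIR3922, MIRb, SOX17 list, chr12:104529240-104529340, plus strand: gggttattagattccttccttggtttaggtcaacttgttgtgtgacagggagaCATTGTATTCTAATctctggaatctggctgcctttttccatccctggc
UBQLN4, L2c, SOX17 list, chr1:156050021-156050121, plus strand: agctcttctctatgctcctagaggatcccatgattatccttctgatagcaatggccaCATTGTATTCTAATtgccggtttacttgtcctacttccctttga
KIT, L2c, SOX17 list, chr4:54685918-54686018, plus strand: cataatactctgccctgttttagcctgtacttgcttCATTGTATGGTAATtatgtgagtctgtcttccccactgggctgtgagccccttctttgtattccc
VCAN, L2a, SOX2 list, chr5:83355093-83355193, plus strand: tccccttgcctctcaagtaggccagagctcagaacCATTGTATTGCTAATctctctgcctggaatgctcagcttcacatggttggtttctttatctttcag
OSBPL3, L2a, SOX2 list, chr7:25026337-25026437, plus strand: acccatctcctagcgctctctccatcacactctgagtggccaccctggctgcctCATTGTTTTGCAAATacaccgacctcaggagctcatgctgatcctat
EEA1, L2a, SOX2 list, chr12:92933724-92933824, minus strand: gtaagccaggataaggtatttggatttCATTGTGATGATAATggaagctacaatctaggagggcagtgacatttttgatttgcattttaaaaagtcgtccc
CNOT6L, MIR, SOX2 list, chr4:77671183-77671283, minus strand: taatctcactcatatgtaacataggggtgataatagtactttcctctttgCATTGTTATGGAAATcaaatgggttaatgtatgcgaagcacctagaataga
In the first 5 sequences the OCT part follows the SOX part directly, and in the last 4 a base stands between them.

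Several of the highest-scoring peaks are shown next, on various element types. Of the 10 highest, 3 had no SOX site within 100 bp in SOX17 (RNF130, CHN2 and XPNPEP1) and 3 in SOX2 (FBRS, TENT5B and CLSTN2). This is near the share without a site among all ancient repeat peaks, 34.4% in SOX17 and 35.7% in SOX2. Capitals in the next set mark each SOX site, shown on the plus strand, where a site on the other strand reads ACAATG or ACAAAG. KLHL3, EDIL3 and MUC4 are among the regions that stood highest in both lists. C1orf105 and BEND5 are the highest peaks in CR1 elements of the SOX17 and the SOX2 list. LINC01354 is the highest peak of the SOX17 list in an RTE element. RNF130, the highest SOX17 peak of all ancient repeats, has no capitals because neither SOX site is within its window.
KLHL3, MIRb, SOX17 list, chr5:137741942-137742042, plus strand: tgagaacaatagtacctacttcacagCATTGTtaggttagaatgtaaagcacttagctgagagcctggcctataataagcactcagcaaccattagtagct
EDIL3, MIRb, SOX17 list, chr5:84481040-84481140, plus strand: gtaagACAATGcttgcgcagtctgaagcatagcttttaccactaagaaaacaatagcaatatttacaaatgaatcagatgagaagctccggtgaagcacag
MUC4, L2a, SOX17 list, chr3:195806540-195806640, plus strand: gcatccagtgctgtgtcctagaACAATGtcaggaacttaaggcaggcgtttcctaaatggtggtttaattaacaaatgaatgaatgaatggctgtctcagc
C1orf105, Plat_L3, SOX17 list, chr1:172360562-172360662, plus strand: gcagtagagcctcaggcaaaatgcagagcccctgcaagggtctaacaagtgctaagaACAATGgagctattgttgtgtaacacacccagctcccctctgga
LINC01354, MamRTE1, SOX17 list, chr1:234540202-234540302, plus strand: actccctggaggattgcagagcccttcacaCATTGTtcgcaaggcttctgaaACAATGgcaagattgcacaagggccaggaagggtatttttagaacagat
BEND5, L3, SOX2 list, chr1:48645793-48645893, plus strand: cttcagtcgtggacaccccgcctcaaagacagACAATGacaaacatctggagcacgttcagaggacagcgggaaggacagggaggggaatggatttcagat
RNF130, L2a, SOX17 list, chr5:180082977-180083077, plus strand: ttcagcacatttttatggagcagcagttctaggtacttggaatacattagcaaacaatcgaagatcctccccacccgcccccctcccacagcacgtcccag

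Ancient repeats made up a larger share of the SOX17 list than of the SOX2 list. The share was 6.88% of SOX17 peaks (95% Wilson interval 6.52 to 7.27%) and 5.72% of SOX2 peaks (5.38 to 6.07%). This gave an odds ratio, SOX17 over SOX2, of 1.22 (1.12 to 1.33, 95% Woolf interval). It passed the two-sided Fisher's exact test with an adjusted p of 1.57e-05 over 15 tests. L2 gave most of them, with 696 SOX17 and 549 SOX2 peaks, followed by MIR with 400 SOX17 and 369 SOX2 peaks. CR1, the family of the L3 elements, held 78 SOX17 and 68 SOX2 peaks. The rarer RTE-X, RTE-BovB, Dong-R4 and Penelope families held 31 peaks in each list. L2a was the commonest element name in both lists, with 258 SOX17 and 224 SOX2 peaks. L2c had 224 SOX17 and 142 SOX2 peaks, or 18.6% of the SOX17 and 13.96% of the SOX2 ancient repeat peaks, and MIRb had 189 SOX17 and 146 SOX2 peaks. MIRc had more SOX2 peaks, with 56 SOX17 and 74 SOX2 peaks. These shares by name were not tested.

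**Figure D1:**
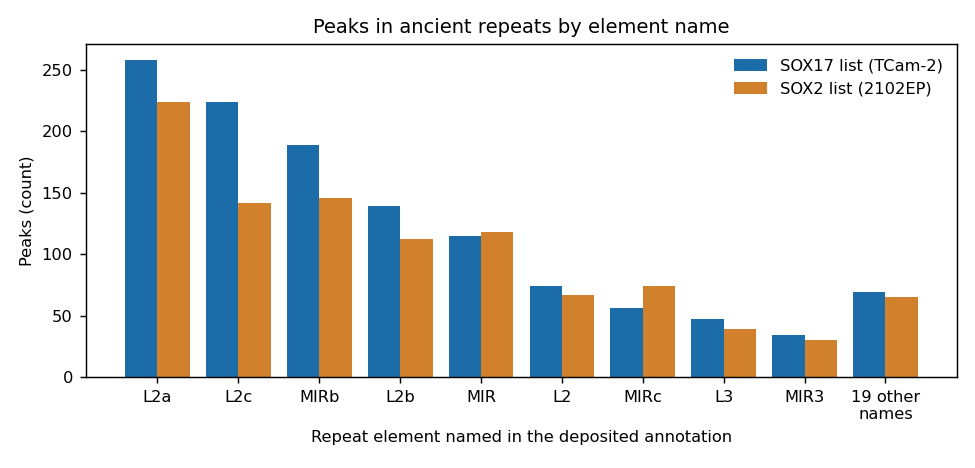
Number of ancient repeat peaks (y axis, count) by repeat element name (x axis) in the SOX17 list (blue, left bar) and the SOX2 list (orange, right bar). L2a leads in both lists with 258 SOX17 and 224 SOX2 peaks, and the 19 rarer names together hold 69 SOX17 and 65 SOX2 peaks.

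All ancient repeat peaks lay in introns or between genes, because the annotation names a repeat only where no promoter or exon takes precedence. Introns held 651 SOX17 and 543 SOX2 peaks, and 554 SOX17 and 474 SOX2 peaks were intergenic. The median distance to the nearest transcription start site (TSS) was 31685 bp for SOX17 and 34318 bp for SOX2. Peak widths resembled those of the other peaks, with a median of 123 bp in both SOX17 sets and of 127 bp in both SOX2 sets. The authors' score has no stated scale and is mostly given here as a percentile within its own list. Ancient repeat peaks reached scores of 324.7 in SOX17 and 398.5 in SOX2, while the highest scores of all peaks were 667.7 in SOX17 and 942.8 in SOX2. The median percentile of SOX17 ancient repeat peaks was 50.7, against 49.96 for the other SOX17 peaks. For SOX2 it was 46.7, against 50.3 for the other SOX2 peaks. Ancient repeats made up 5.91% of the SOX17 peaks of score decile 10, the highest (4.90 to 7.12%), and 5.58% of those of decile 1 (4.58 to 6.77%), with no decile above 8.21%. Of the SOX2 peaks they made up 4.44% in decile 10 (3.58 to 5.50%) and 5.90% in decile 1 (4.90 to 7.09%).

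SOX sites were far more frequent in these peaks than beside them. Within 100 bp of the centre 65.6% of SOX17 ancient repeat peaks held a SOX site (62.9 to 68.3%), against 23.5% of windows of the same width 2000 bp to either side (21.8 to 25.2%). For SOX2 the shares were 64.3% in peaks (61.3 to 67.2%) and 23.5% in flanking windows (21.8 to 25.4%). Over all SOX17 peaks the share with a SOX site was 67.1%, near that of the ancient repeats. Over all SOX2 peaks it was 60.5% (59.75 to 61.19%), somewhat below that of the ancient repeats, a difference that was not tested. The odds ratio of peaks over flanks was 6.22 for SOX17 (5.35 to 7.24, Fisher's exact test, adjusted p = 1.22e-132) and 5.85 for SOX2 (4.96 to 6.89, adjusted p = 2.92e-105). The nearest site lay close to the centre, at a median of 16.5 bp for SOX17 and 18.5 bp for SOX2. In an unguided count, words of 6 bases within 50 bp of the centre were ranked by their share in peaks over that in flanks. The SOX site CATTGT, with its reverse complement ACAATG, also led both lists by this measure. It was in 37.7% of SOX17 peaks, against 5.10% of their flanks, and in 26.2% of SOX2 peaks, against 5.21% of their flanks. The second word in SOX2 was CTTTGT, in 32.6% of peaks against 8.01% of flanks.

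The factors differed in which form of the SOX site they held. The nearest site was CATTGT in 60.3% of the 791 SOX17 ancient repeat peaks with a site (56.9 to 63.7%), and in 43.4% of the 654 SOX2 peaks with one (39.7 to 47.2%). The remaining sites were CTTTGT. In flanking windows CATTGT made up 41.3% of sites beside SOX17 peaks (37.4 to 45.4%) and 40.7% beside SOX2 peaks (36.4 to 45.2%), so that the SOX2 peaks lay near this background and the SOX17 peaks above it. A gap in the same direction, but of differing size, was present in each of the larger families. In L2 the share of CATTGT was 58.6% for SOX17 and 40.4% for SOX2. In MIR it was 63.9% for SOX17 and 51.3% for SOX2 (44.8 to 57.8%), so that SOX2 MIR peaks also lay above the 40.7% of flanks. In CR1, with 52 SOX17 and 48 SOX2 sites, it was 57.7% for SOX17 and 29.2% for SOX2 (18.2 to 43.2%). Outside ancient repeats the nearest site was CATTGT in 59.6% of the other SOX17 peaks and 40.5% of the other SOX2 peaks. These shares are descriptions and were not tested.

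Composite sites separated the factors by spacing. The compressed composite, with an OCT part of at most 1 mismatch, was in 29 of 1205 SOX17 ancient repeat peaks (2.41%, 1.68 to 3.43%) and in 0 of 1017 SOX2 peaks, which allows a share of up to 0.295% at 3 counts (Fisher's exact test, adjusted p = 6.29e-08). The canonical composite was in 6 SOX17 peaks (0.498%, 0.228 to 1.08%) and in 21 SOX2 peaks (2.06%, 1.35 to 3.14%). As an odds ratio, SOX17 over SOX2, this was 0.237 (0.0954 to 0.590, Fisher's exact test, adjusted p = 0.00149). In the flanking windows of SOX17 peaks, 0 of 2410 held the compressed site, which allows up to 0.124% (Fisher's exact test against peaks, adjusted p = 5.81e-14) and 2 held the canonical site (adjusted p = 0.0326). The canonical call of SOX17 against flanks was lost in 4 of 7 alternatives, with windows of 150 bp, peaks above the median score, no mismatch or an OCT part of ATGC (adjusted p = 0.0845 to 0.208 by Fisher's exact test). The compressed call against flanks was lost with no mismatch (adjusted p = 0.208 by Fisher's exact test). In those of SOX2 peaks, 0 of 2034 held the canonical site, which allows up to 0.147% (Fisher's exact test, adjusted p = 3.12e-10). Spacings of 2 to 10 bases were found in at most 5 peaks each in either list. With no mismatch allowed in the OCT part, 2 SOX17 and 0 SOX2 peaks held the compressed site (adjusted p = 0.657 by Fisher's exact test), while 2 SOX17 and 5 SOX2 peaks held the canonical one (adjusted p = 0.387), so both calls between the lists rest on sites with 1 mismatch. The canonical call was also lost when peaks under their list's median score were left out, at 4 of 608 SOX17 and 8 of 465 SOX2 peaks (adjusted p = 0.213 by Fisher's exact test).

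**Figure D2:**
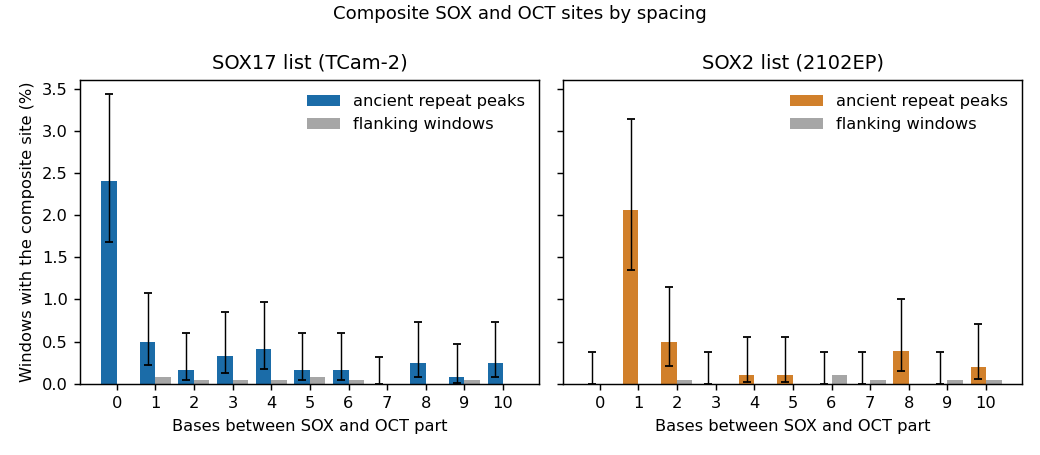
Share of windows (y axis, %) with a SOX site followed by an OCT site after 0 to 10 bases (x axis) in the SOX17 list (left) and the SOX2 list (right). Coloured bars are ancient repeat peaks with 95% Wilson intervals and grey bars are flanking windows. SOX17 stands out at 0 bases with 2.41% of peaks, and SOX2 at 1 base with 2.06% of peaks.

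The composite shares of ancient repeats were close to those of the rest of each list. The compressed site was in 2.41% of SOX17 ancient repeat peaks and 2.80% of the other SOX17 peaks, with an odds ratio of 0.857 (0.586 to 1.25, Fisher's exact test, adjusted p = 0.584). Against the 6342 SOX17 peaks in repeats of other kinds, 4.37% of which held it, the share in ancient repeats was lower, with an odds ratio of 0.540 (0.366 to 0.796, Fisher's exact test, adjusted p = 0.00174). Against the 8790 intergenic and intron peaks outside repeats, with 1.77%, it was higher but did not pass the threshold (odds ratio 1.37, 0.914 to 2.04, Fisher's exact test, adjusted p = 0.206). For the canonical site the odds ratio of ancient repeats over other peaks was 1.40 in SOX17 (0.604 to 3.25, adjusted p = 0.584) and 1.27 in SOX2 (0.811 to 1.99, adjusted p = 0.464), both by Fisher's exact test. The intervals leave room for differences in either direction.

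The composites were spread over many copies. The 29 compressed sites of SOX17 fell on 16 L2 peaks, 12 MIR peaks and 1 RTE-BovB peak. The SOX part was CATTGT in 20 of them and CTTTGT in 9. Only 2 had a perfect OCT part, near ADAMTSL4 and MPP5. The mismatch was at base 1 of the OCT part in 7, at base 3 in 7, at base 6 in 5 and at base 4 in 3, counted from its 5′ end. The commonest OCT part was ATTCTAAT, in 5 peaks, of which 3 were in L2c elements, near UBQLN4, EPHA7 and RFX3-AS1. TTGCAAAT followed with 4 peaks, near FHAD1, USP47, CNTN3 and MDFI. The 21 canonical sites of SOX2 fell on 11 L2, 9 MIR and 1 CR1 peak, and 5 had a perfect OCT part. Their SOX part was CATTGT in 11 and CTTTGT in 10.

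Of all 1205 SOX17 ancient repeat peaks 250 overlapped a SOX2 peak, so most had none. The 5 compressed sites of highest score lay in SOX17 peaks without a SOX2 peak. The highest was near RGS20, a regulator of G-protein signalling, in an L2a copy at percentile 93.7. It was followed by USP47, a deubiquitinating enzyme, in a MIRb copy at percentile 92.1 and at -24290 bp from the TSS, where a negative distance is upstream, and by P3H2, a collagen prolyl hydroxylase, in a MIR3 copy at percentile 90.4. KIT, the stem cell factor receptor that marks germ cells and seminoma, held a SOX17 peak with a compressed site in an intronic L2c copy, 28040 bp from the TSS and at percentile 40.4. No SOX2 peak overlapped it. The canonical sites of highest score in SOX2 were near PRDM14, VCAN, which encodes the matrix proteoglycan versican, OSBPL3 and EEA1, an endosomal tethering protein. VCAN was shared, at percentile 73.2 in SOX17 and 90.1 in SOX2, while OSBPL3 and EEA1 had SOX2 peaks alone, at percentiles 71.7 and 68.3. Of the 6 canonical sites of SOX17, the 5 of highest score lay in shared regions, near VCAN, PRDM14 in 2 places, FOXN3 and GSDME.

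Single OCT and AP-2 sites had different shares in the lists, given here as a description without a test. An OCT site without mismatch was in 6.56% of SOX17 ancient repeat peaks (5.29 to 8.10%), against 2.49% of their flanks (1.94 to 3.19%). It was in 9.83% of SOX2 ancient repeat peaks (8.15 to 11.8%), against 1.67% of their flanks (1.20 to 2.33%). In other repeats it was in 18.3% of SOX17 and 21.0% of SOX2 peaks. In intergenic and intron peaks outside repeats it was in 7.69% of SOX17 and 12.2% of SOX2 peaks. AP-2 factors include TFAP2C, a regulator of human germ cells. The AP-2 site was in 12.0% of SOX17 ancient repeat peaks (10.3 to 13.99%), against 4.11% of flanks (3.39 to 4.98%). In SOX2 it was in 5.51% of peaks (4.27 to 7.08%), against 4.13% of flanks (3.35 to 5.08%). Within SOX17 it was in 16.5% of MIR peaks (13.2 to 20.5%) and 9.63% of L2 peaks (7.65 to 12.0%). AP-2 shares of intergenic and intron peaks outside repeats were 13.0% in SOX17 and 7.29% in SOX2. Those of other repeats were 9.60% in SOX17 and 4.80% in SOX2. The median GC content of the windows was 44.3% in SOX17 and 43.3% in SOX2 ancient repeat peaks, and its part in the AP-2 shares was not tested.

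**Figure D3:**
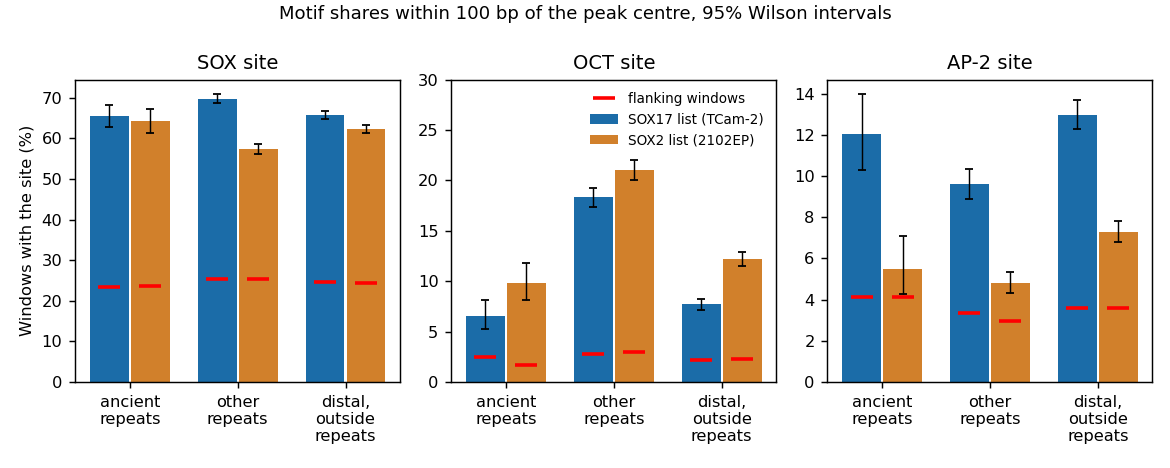
Share of peaks (y axis, %) with a SOX, OCT or AP-2 site within 100 bp of the centre, for ancient repeats, other repeats and intergenic or intron peaks outside repeats (x axis), in the SOX17 list (blue) and the SOX2 list (orange). Bars carry 95% Wilson intervals and red dashes are flanking windows. In ancient repeats the AP-2 share is 12.0% in SOX17 and 5.51% in SOX2 peaks, while the SOX site shares are 65.6% and 64.3%.

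To see where in the element the SOX sites lay, a profile of MIR was built from the sequence around the MIR peaks of both lists, with every SOX site masked so that it could not guide the alignment. The profile had 242 positions. It placed 295 of 400 SOX17 MIR peaks and 274 of 369 SOX2 MIR peaks, with 145 SOX17 and 125 SOX2 sites on them. It also found 6429 copies on chromosome 22 outside all peaks and 0 hits on the same chromosome read backwards. These copies give the level of SOX sites in MIR on that chromosome, and no other chromosome was searched. A few positions carried sites again and again. The 6 leading positions held 38.6% of the SOX17 sites, 28.0% of the SOX2 sites and 20.5% of those of the chromosome 22 copies. Since they were picked by their number of sites in the peaks, these values are a description. Of positions close together on the same strand, only the one ranked highest was kept. Position 86, on the opposite strand, was passed over in this way, with 6 SOX17 sites, 5 SOX2 sites and 44 sites in the chromosome 22 copies.

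The leading position was 122, on the MIR strand. Of the copies that covered it, 18 of 233 SOX17 peaks had a SOX site there (7.73%, 4.94 to 11.9%), against 5 of 225 SOX2 peaks (2.22%, 0.953 to 5.10%) and 45 of 5519 copies of chromosome 22 (0.815%, 0.610 to 1.09%). At this place the profile's consensus reads CATTTT, so that T5G, counted from the 5′ end of the site, turns it into CATTGT. At position 43, also on the MIR strand, 10 of 162 SOX17 peaks (6.17%, 3.39 to 10.99%), 8 of 147 SOX2 peaks (5.44%, 2.78 to 10.4%) and 1.61% of the chromosome 22 copies (1.22 to 2.12%) held a site. The consensus there reads CACTGT and needs C3T. Because SOX sites were masked, the consensus letters come from copies without a site. At position 132, on the opposite strand, 12 of 234 SOX17 peaks (5.13%, 2.96 to 8.75%), 3 of 211 SOX2 peaks (1.42%, 0.485 to 4.10%) and 0.330% of copies held a site (0.212 to 0.516%). Its consensus, CCTCAT, differs from CATTGT at 3 bases. The share was thus higher in SOX17 than in SOX2 peaks at positions 122 and 132. The intervals of the lists overlapped at all 3 positions, which is no test of a difference, and none was run. Copies at these positions are shown in 66 bases of hg38, read in the direction of the site. Capitals mark only the SOX site at the named position, and the MIR4476 copy also holds CTTTGT in lower case. The first 4 copies are for position 122, then 2 for position 43 and 3 for position 132.
RIN3, MIR, SOX17 list, chr14:92557219-92557284, plus strand: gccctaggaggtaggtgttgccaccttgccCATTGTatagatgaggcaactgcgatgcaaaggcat
EQTN, MIRb, SOX17 list, chr9:27395815-27395880, minus strand: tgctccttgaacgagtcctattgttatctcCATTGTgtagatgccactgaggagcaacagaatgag
LRRC59, MIR, SOX2 list, chr17:50396272-50396337, plus strand: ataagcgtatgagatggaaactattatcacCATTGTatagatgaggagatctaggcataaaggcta
MYF5, MIR, SOX2 list, chr12:80714548-80714613, minus strand: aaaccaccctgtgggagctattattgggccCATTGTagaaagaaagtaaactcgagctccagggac
MIR4476, MIRb, SOX17 list, chr9:36892383-36892448, plus strand: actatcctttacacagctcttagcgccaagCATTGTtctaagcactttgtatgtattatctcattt
LRRC32, MIR, SOX2 list, chr11:76624343-76624408, minus strand: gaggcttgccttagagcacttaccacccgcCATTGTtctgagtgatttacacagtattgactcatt
TRIM2, MIRb, SOX17 list, chr4:153234592-153234657, plus strand: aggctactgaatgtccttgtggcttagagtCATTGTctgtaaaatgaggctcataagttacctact
NMT2, MIRb, SOX17 list, chr10:15248969-15249034, minus strand: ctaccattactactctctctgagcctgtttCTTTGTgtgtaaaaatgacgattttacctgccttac
CUX2, MIR, SOX2 list, chr12:111041139-111041204, plus strand: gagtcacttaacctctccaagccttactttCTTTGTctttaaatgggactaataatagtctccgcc
The copies near EQTN, LRRC59, MIR4476 and LRRC32 lie in peaks that overlap one of the other list.

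**Figure D4:**
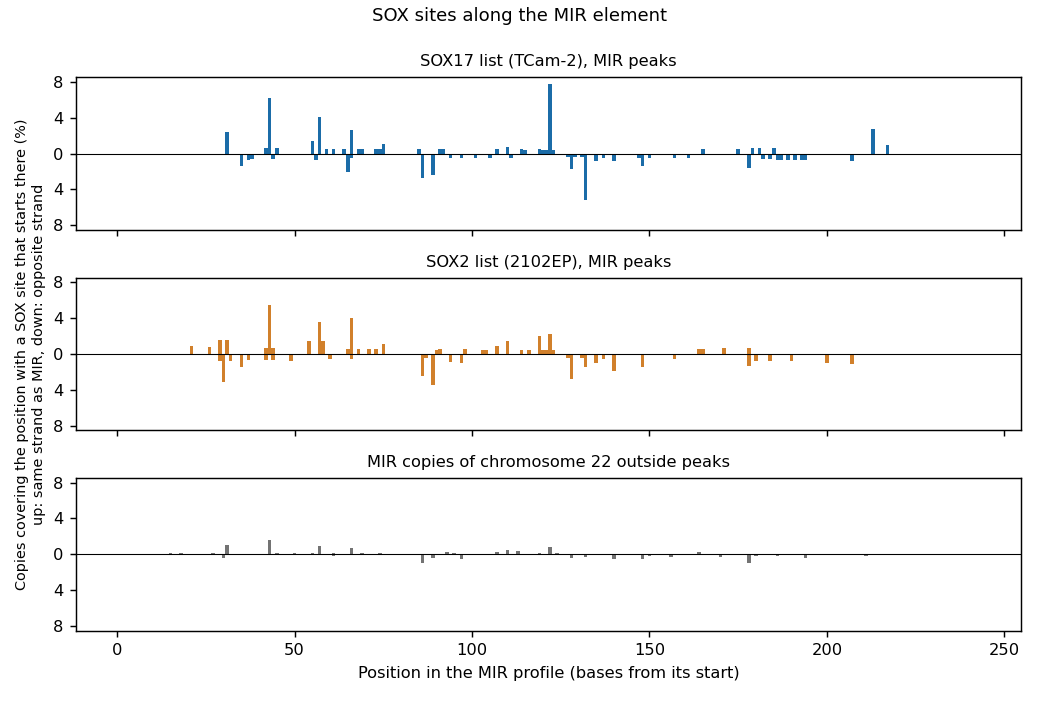
Share of the MIR copies covering a position that have a SOX site starting there (y axis, %) along the 242 positions of the profile (x axis), for SOX17 MIR peaks (top), SOX2 MIR peaks (middle) and MIR copies of chromosome 22 outside peaks (bottom). Bars point up for sites on the MIR strand and down for the opposite strand, and positions covered by fewer than 50 copies are left out. Position 122 is highest in SOX17 with 7.73%, against 2.22% in SOX2 peaks and 0.815% of the copies.

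Overlap between the lists tells which copies both factors occupied. Of all SOX17 peaks 25.3% overlapped a SOX2 peak by at least 1 bp, and of all SOX2 peaks 24.9% overlapped a SOX17 peak. Among SOX17 ancient repeat peaks 250 of 1205 were shared (20.7%, 18.6 to 23.1%), against 25.6% of the other SOX17 peaks (24.9 to 26.3%). The odds ratio was 0.760 (0.659 to 0.877, Fisher's exact test, adjusted p = 0.000333). Among SOX2 ancient repeat peaks 244 of 1017 were shared (24.0%, 21.5 to 26.7%), against 24.9% of the other SOX2 peaks, with an odds ratio of 0.951 (0.820 to 1.10, Fisher's exact test, adjusted p = 0.606). The shared regions were largely the same in both lists, with 224 in ancient repeats of both. The overlap test in SOX17 is therefore not independent of the test on the larger share of ancient repeats in its list. In SOX17 the share of peaks that overlapped the other list was 19.3% for L2 (16.5 to 22.4%), 22% for MIR (18.2 to 26.3%) and 24.4% for CR1 (16.2 to 34.9%). In SOX2 it was 23.9% for L2, 23.3% for MIR and 26.5% for CR1. The share was higher with 1 or 2 SOX sites than with none. SOX17 peaks with 0, 1 and 2 SOX sites were shared in 16.2% (12.9 to 20.04%), 20.4% (17.2 to 24.0%) and 29.0% (23.3 to 35.5%). SOX2 peaks with 0, 1 and 2 sites were shared in 17.4% (13.8 to 21.6%), 25.1% (21.2 to 29.3%) and 35.1% (28.3 to 42.5%). Among the fewer peaks with 3 sites, the share was 25.0% of 36 SOX17 peaks (13.7 to 41.1%) and 23.7% of 38 SOX2 peaks (12.99 to 39.2%). It also moved with the score, as in all peaks: 34.0% of the SOX17 and 48.1% of the SOX2 ancient repeat peaks of decile 10 were shared, against 9.47% of SOX17 and 9.52% of SOX2 peaks of decile 1.

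**Figure D5:**
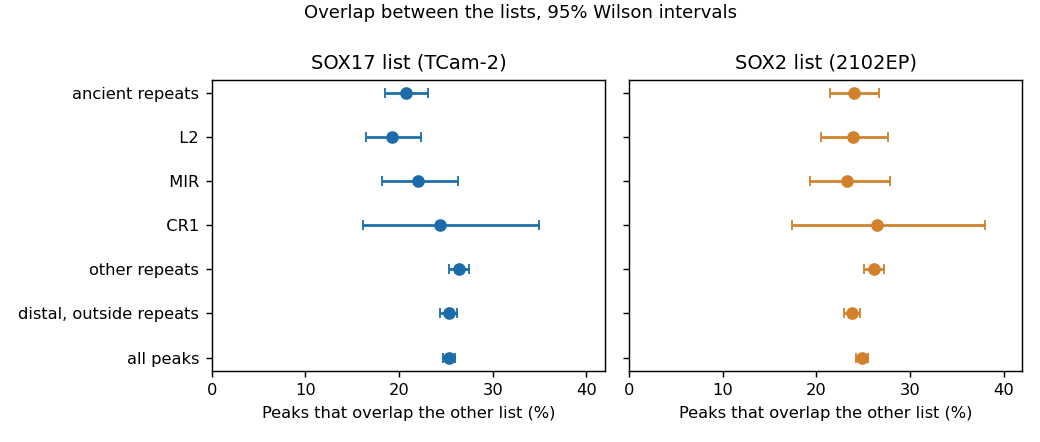
Share of peaks that overlap a peak of the other list (x axis, %) with 95% Wilson intervals, for ancient repeats, their 3 larger families, other repeats, intergenic or intron peaks outside repeats and all peaks (y axis), in the SOX17 list (left) and the SOX2 list (right). SOX17 peaks in ancient repeats sit at 20.7%, below the 25.3% of all SOX17 peaks, and SOX2 peaks at 24.0%, near the 24.9% of all SOX2 peaks.

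In all, 224 regions were ancient repeats in both lists, which leaves 1998 different regions, 981 with SOX17 alone or a partner of another annotation and 793 likewise for SOX2. Both lists gave the same element name in 223 of the 224. The centres lay a median of 12 bp apart, and in 156 regions within 20 bp. L2 made up 124 of them, MIR 76 and CR1 16. A SOX site was within 100 bp of the centre in 166 regions (74.1%). Across the 224 regions the scores of the lists had a Spearman rho of 0.262 and, on the log2 scale, a Pearson r of 0.272, a description over regions that come from the same 2 experiments.

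The shared regions of highest mean percentile were near genes of varied function. MUC4, a membrane mucin, was shared in an intronic L2a copy at percentile 98.5 in SOX17 and 99.8 in SOX2. EDIL3, an integrin-binding matrix protein, followed with an intergenic MIRb copy at -96223 bp and at percentile 99.0 in SOX17 and 98.7 in SOX2. TENT5B, a poly(A) polymerase, had an intronic MIR copy at percentile 97.4 in SOX17 and 99.4 in SOX2. ID1, an inhibitor of helix-loop-helix factors and a target of BMP signalling, had an L2a copy at -9454 bp, at percentile 95.2 in SOX17 and 99.5 in SOX2. KLHL3, an adaptor of a ubiquitin ligase, C1orf105, SEC61G, MIR320C1 and PRRC2B were also among the 10 highest. So was PRDM14, a regulator of pluripotency and germ cell fate. PRDM14 had 3 ancient repeat peaks in each list, and all 3 were shared. The MIRc copy 75668 bp from the TSS stood at percentile 94.3 in SOX17 and 96.6 in SOX2. The L2b copy at -3635 bp stood at percentile 57.1 in SOX17 and 91.1 in SOX2, and the MIR copy 116848 bp from the TSS at percentile 70.7 in SOX17 and 76.2 in SOX2. The last 2 held canonical composite sites.

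The highest peaks of each list were partly shared. In SOX17 the highest ancient repeat peak was near RNF130, a ubiquitin ligase, in an intergenic L2a copy at percentile 99.96, with no SOX site and no SOX2 peak. CHN2, a Rac GTPase-activating protein, had an intronic L2b copy at percentile 99.6, also without either. BMPR1A, a type I BMP receptor, had a SOX17 peak in an intronic L2 copy at percentile 99.2, which overlapped a SOX2 peak at percentile 76.2. LINC01995, PPP1R12A, PLEKHG6, XPNPEP1, LINC01354 and LOC101927196 made up the rest of the 10 highest with KLHL3, and of these LINC01995, PPP1R12A and XPNPEP1 also overlapped a SOX2 peak. In SOX2 the highest peaks after MUC4 were near FBRS, in a MIRb copy at percentile 99.8, MXI1, an antagonist of MYC, in a MIR copy at percentile 99.7, and JAKMIP2-AS1, in a MIRb copy at percentile 99.6. None of these 3 had a SOX17 peak. ZBTB47 and LOC100507468, which overlapped a SOX17 peak, and CAND1.11 and CLSTN2, which did not, were also among the 10 highest. SOX17 scores of ancient repeat peaks ran higher on the short arm of chromosome 12, with a median of 33.7 for 21 peaks, and on chromosome 20, with 33.3 for 40 peaks, than elsewhere, with 26.3. The other SOX17 peaks also had higher medians there, 42 on that arm and 36.3 on chromosome 20, against 26.3 elsewhere. SOX2 scores of ancient repeat peaks had a median of 56.6 on that arm for 15 peaks and of 19.6 on chromosome 20 for 23 peaks, against 22.4 elsewhere. For the other SOX2 peaks the medians were 47.0 on that arm and 27.1 on chromosome 20, against 23.8 elsewhere. None of these medians was tested.

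Some of the nearest genes in the deposited annotation were regulators of germ cell and pluripotent states. The SOX17 peaks named 1114 genes and the SOX2 peaks 948. Of these, 287 were named by both, 25.8% of the SOX17 and 30.3% of the SOX2 genes. As a background, 1.86% of the 59792 RefSeq genes were nearest to a SOX17 and 1.58% to a SOX2 ancient repeat peak. This background took RefSeq genes of all types, whereas 71.45% of SOX17 and 70.7% of SOX2 ancient repeat peaks were nearest to a protein-coding gene. The gene lists below were not matched to it by type. Among 29 pluripotency genes found in RefSeq, 7 were nearest to a SOX17 peak (ESRRB, KLF4, KLF5, PRDM14, SALL4, TBX3 and TERF1) and 5 to a SOX2 peak, among them DNMT3B, KLF17 and PRDM14. Shares above the background were also found for lists of unrelated function, such as 10.0% for SOX17 and 15.0% for SOX2 of 20 muscle genes, and the size of each gene's neighbourhood was not taken into account. The TBX3 peak, in an L2a copy, lay at -554711 bp. The DNMT3B peak of SOX2, in a MIRc copy at -6045 bp, stood at percentile 87.8, and the KLF17 peak, in an L2c copy 961 bp into the gene, at percentile 87.4.

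Of 30 germ cell and seminoma genes, 4 were nearest to a SOX17 peak (CXCR4, KIT, KLF4 and TFAP2C) and 4 to a SOX2 peak (ARID5B, KLF4, PDPN and PIWIL1). CXCR4, a chemokine receptor of migrating germ cells, had a SOX17 peak in an L2c copy at percentile 84.5 and another in a MIR3 copy at percentile 34.6. TFAP2C had a SOX17 peak in a MIR copy at percentile 71.5, 268206 bp away. PDPN, which encodes podoplanin, had a SOX2 peak in a MamRTE1 copy at percentile 89.5, the highest SOX2 peak of the RTE-BovB family. Of the other genes looked up by name, GATA6, an endoderm regulator, had a SOX17 peak in an L3 copy at percentile 77.0, and NANOG, POU5F1, PRDM1, SOX2, SOX17 and DPPA4 were not nearest to any ancient repeat peak.

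Signalling genes were named in small numbers. Of 33 Nodal and BMP genes 4 were nearest to a SOX17 peak (BMPR1A, BMPR1B, ID1 and SMAD6) and 2 to a SOX2 peak (BMPR1A and ID1). The BMPR1B peak of SOX17 lay in a MamRTE1 copy at percentile 92.0. Of 28 FGF and MAPK genes 5 were nearest to a SOX17 peak and 3 to a SOX2 peak. Among them ETV5, a transcription factor downstream of FGF signals, was shared in an L2c copy, at percentile 49.1 in SOX17 and 33.9 in SOX2. Of 29 WNT genes 2 were nearest to a SOX17 peak and 3 to a SOX2 peak, with TCF7L2, the nuclear partner of beta-catenin, in both lists at different copies. Of 20 SOX family genes SOX13 and SOX14 were nearest to a SOX17 peak and SOX5 to a SOX2 peak. Of 28 chromatin genes 3 in each list were named, and the DNMT3A copy, an L2c element, was shared at percentile 54.4 in SOX17 and 65.6 in SOX2. Of 30 adhesion and migration genes 4 were named by SOX17 and 1 by SOX2. The lists of 18 endoderm and 21 neuroectoderm genes gave 1 gene each by SOX17 and 0 by SOX2, that of 18 mesoderm and trophoblast genes 0 in either, that of 20 haematopoietic genes 2 by SOX17 and 0 by SOX2, and that of 20 housekeeping genes 1 in each.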

How the data were processed

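The authors deposited 1 merged and annotated peak list per factor, with position, nearest gene, annotation and repeat name on hg38, per the file headers. The peak score is the authors' deposited score, whose scale is not stated, so scores were compared within a list, mostly as percentiles; raw scores are given only as medians by chromosome, as ranges and in a correlation across shared regions. Per the series' design text, 75 bp single-end reads, planned at 25 M per sample, were mapped in CLC Genomics Workbench 12; HOMER, also named in the submitters' processing notes, was used for analysis. The settings for calling and merging peaks, for input and for reads that match several repeat copies were not given in the sources used here. Each immunoprecipitation used 200 µg of chromatin and 5 µg of antibody.

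Members and gene lists were chosen with earlier results of these data known. The distances of 96.9% of SOX17 and 97.0% of SOX2 member peaks with a gene in GENCODE 44 agree within 1000 bp with a TSS of that gene. Sequence was read from hg38 with pysam 0.24.0. Motif windows covered 100 bp to either side of the peak centre, and flanking windows of the same width stood 2000 bp away. Peaks were shared where they overlapped by 1 bp or more. The 15 comparisons used two-sided Fisher's exact tests (scipy 1.17.1), adjusted by Benjamini and Hochberg over the 15 with a threshold of 0.05. Shares carry 95% Wilson intervals and odds ratios 95% Woolf intervals. Tests treat peaks as independent, but copies of a repeat share sequence and 224 regions are in both lists, so these values are approximate. The tests against flanks also pooled the windows on either side of each peak and did not pair them with that peak. Where 0 peaks or windows held a composite in the main tests between lists and against flanks, the share that 3 counts would make is given; it lies below the Wilson upper limit drawn in the plot of spacings.

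The MIR profile was built with nhmmer 3.4 from windows of 150 bp to either side, kept columns covered by 25% of the best-covered one, and placed copies at 25 bits or more. Its settings were chosen after other seeds and bit scores had been tried, and windows around L2 peaks gave no usable L2 profile. A site was placed where at least 4 of its 6 bases aligned. The steps were tested on simulated data.

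Named peaks were, per list, the 10 of highest score with different genes, the highest of each family, and the 5 highest with each composite site. To these came the 10 shared regions of highest percentile averaged over the lists, up to 4 genes per gene list, and 10 genes looked up by name. The genes given for composite OCT parts and the MIR copies were named after their values were seen. Alternatives were other overlap rules, windows, flanks, mismatches, score limits, reference peaks and chromosomes. A test of ChIP against input was not possible on merged lists. Some items are not reported here.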

Additional observations from a re-analysis of the deposited data

How the results depend on the processing

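Of 101 alternative values over the 15 tests, 86 did not reverse direction or change their side of the threshold. Another 8 kept the direction but no longer passed, 1 passed only under the alternative and 6, none of which passed the threshold, changed direction. Among the 86 are 7 for the compressed site in SOX2 peaks over flanks, where the main difference was 0 and had no direction. Leaving out families with a question mark removed no peak, so that setting could not change its result. All values here are differences in percentage points. Leaving out peaks under the list's median score gave -1.06 for the canonical site in SOX17 over SOX2 peaks, 0.576 for it in SOX17 peaks over flanks, and -0.0209 for it in SOX2 ancient repeats over other peaks. Allowing no mismatch in the OCT part gave -0.326 for the canonical and 0.166 for the compressed site in SOX17 over SOX2 peaks, and 0.166 for each in SOX17 peaks over flanks. Windows of 150 bp gave 0.373 for the canonical site in SOX17 peaks over flanks. Against other repeats, the compressed site in SOX17 ancient repeats gave -1.96. Against intergenic and intron peaks outside repeats it gave 0.632, and sharing of SOX2 peaks 0.168. With the OCT part reduced to ATGC, chosen after seeing the data, the canonical site gave 0.207 in SOX17 peaks over flanks, -0.285 in SOX17 and -0.468 in SOX2 ancient repeats over other peaks, and the compressed site 0.193 in SOX17 ancient repeats over other peaks. Apart from the smaller sets and the stricter site that the settings themselves make, the cause was not tested. No paired analysis was possible because the merged lists hold no values per library, and for the same reason no replicate could be left out. Merged peaks also limit what can be seen: sites called in 1 library alone may be missing, and depth cannot be weighed.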
